A study of Mus musculus with 6 samples.

Results

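The subcortical maternal complex and the cytoplasmic lattices of the mouse egg are described here through 6 genes: Nlrp5 (also called Mater), Ooep (Floped), Tle6, Khdc3 (Filia), Padi6 and Zbed3. They were chosen by gene symbol, and each symbol matched 1 of the 55549 rows in the deposited gene tables. RNA was sequenced from mouse embryos at the early 2-cell stage in 2 groups of 3 libraries each. EtP embryos had been cultured from 4 h after fertilization in medium with 40 µM ethylparaben, a preservative ester, and the series states that most of them stopped developing at this stage. The other embryos are labelled only as control. The labels give neither strain, number of embryos per library, hour of collection nor whether libraries came from separate cultures, so p-values here rest on the variation among these 6 libraries, and that variation may be technical.

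The egg makes and stores these proteins before ovulation, and their messages are part of the maternal RNA that is cleared around the 2-cell stage, when the embryonic genome takes over. Nlrp5, Ooep, Tle6 and Khdc3 encode proteins that assemble into the subcortical maternal complex beneath the cell membrane. Padi6 encodes a component of the cytoplasmic lattices, fibrous arrays that store maternal proteins and that are lost in eggs without it, and Zbed3 encodes an Axin-binding protein found with the complex. In mice, embryos of mothers without Nlrp5, Ooep, Tle6 or Padi6 stop at early cleavage. These functions are carried by protein, which was not measured.

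Library totals were 11173295 to 14737152 estimated counts, and between groups log2 counts scaled to library size (CPM) correlated at 0.905 to 0.936, against 0.94 to 0.988 within groups. Scaling by the trimmed mean of M-values (TMM), which lines up the bulk of genes, gave factors of 0.738 to 0.833 in EtP and 1.198 to 1.385 in control libraries. For the marker counts that follow, 18.1% of all 14373 tested genes were called lower in EtP and 12.5% higher by edgeR. All 13 tested members of a list of 15 transcripts that mark the early 2-cell stage were lower in EtP embryos. Sums over the list were 26.2 to 33.0 TPM (transcript abundance scaled for length and depth) in EtP, against 808 to 959 TPM in controls. Tdpoz3, Tdpoz4, Gm4340 and Hspa1b were at 0 in all EtP libraries. Of these Hspa1b was not tested and had only 0.26 to 0.38 TPM in controls. Of 17 cumulus and granulosa cell markers 3 of 6 tested were lower and none higher. Sums over the 17 were 9.78 to 12.6 TPM in EtP and 20.4 to 31.4 TPM in control libraries. These came mostly from Cyp19a1, which averaged 7.97 TPM in EtP and 15.3 TPM in control embryos and was not called (edgeR adjusted p = 0.436). The 3 called lower, Fshr, Tnfaip6 and Ptgs2, averaged 0.94 to 1.25 TPM in control embryos. Of the 17, 11 were under 1 TPM in every library and Amh and Ptx3 at 0. Of 12 sperm markers 1 of 3 tested was lower, with sums of 48.0 to 66.1 TPM in EtP and 76.8 to 119 TPM in control libraries, mostly from Odf2, and Tnp1 and Smcp were at 0 in all 6. The part that differences in stage or in other cells may play in the results below was not tested. In bulk RNA a higher share of the pool and more molecules per embryo cannot be told apart.

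The reads were primed from poly(A) tails, so the annotated ends of the messages are shown first. Each line gives the bases around the polyadenylation signal, 5′ to 3′ as in the message but with T for U, in mm10 coordinates. Capitals mark AATAAA and, in Zbed3, the U-rich elements TTTTAAT and TTTTAT, which in eggs of frog and mouse are known to control cytoplasmic lengthening of the tail.
Nlrp5 (chr7:23441887-23441916, plus strand): tagcaagaatgaAATAAAcacagcatttag
Tle6 (chr10:81590907-81590936, minus strand): cgagttgcgtgtAATAAAacaattgaaatg
Khdc3 (chr9:73104409-73104438, plus strand): ttaaagtattctAATAAAaaaaaaattgca
Padi6 (chr4:140727361-140727390, minus strand): tgccatagagccAATAAAgcatggtattct
Zbed3 (chr13:95337817-95337841, plus strand): TTTTAATAAAcTTTTATttatctgc
The first letter of AATAAA lay 24 bases from the annotated end in Nlrp5, 20 in Tle6, 18 in Khdc3, 24 in Padi6 and 21 in Zbed3. In the last 40 bases of the Ooep transcript neither AATAAA nor ATTAAA was found. Across the 11008 tested genes with a 3′ UTR of at least 100 bases, 77.0% had one of them there. Zbed3 was the only gene of the 6 with TTTTAT or TTTTAAT in its last 100 bases, at 25 and 14 bases from the end, and the first of these overlaps the AATAAA. Of all 11008 genes 20.02% had such an element in that window. In the last 200 bases Zbed3 was again the only one of the 6, with a further TTTTAT at 163 bases. The share was 30.9% of the 10340 genes with a 3′ UTR of at least 200 bases. The 3′ UTRs of Nlrp5, at 109 bases, and of the Tle6 transcript shown, at 130 bases, are shorter than that. For Tle6 the rule, which took the longest 3′ UTR, gave a 627-base transcript with neither element; the longest coding transcript shown here was chosen after that was seen.

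All 6 genes passed the filter on low counts, and 4 of them, Padi6, Nlrp5, Ooep and Zbed3, were higher in EtP embryos while none was lower (edgeR, adjusted p below 0.05 over all genes). Of all 14373 genes tested, 12.5% were called higher and 18.1% lower, 30.6% in all. The median log2 fold change of the 6 was 1.10, against -0.19 for all tested genes. The largest of the 4 increases was that of Padi6, at 5.75-fold, and Tle6 and Khdc3 did not pass the test. None of the 6 was lower at an unadjusted p below 0.05 either, and DESeq2 and limma-voom gave the same counts of 4 higher and 0 lower. How libraries are scaled decides part of this count. Scaled by library size alone, all genes had a median of -0.92, 3.79% of genes were higher and 53.0% lower, and the 6 gave 2 higher, Padi6 and Nlrp5, and 1 lower, Khdc3. With limma on log2(TPM + 1) the 6 gave 3 higher, Padi6, Nlrp5 and Ooep, and 2 lower, Khdc3 and Tle6, where 4.86% of genes were higher and 43.1% lower. In deposited TPM the groups did not overlap for 4 of the 6 genes, 3 higher and 1 lower in EtP, where 6.74% of tested genes were higher and 50.4% lower without overlap.

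**Figure D1:**
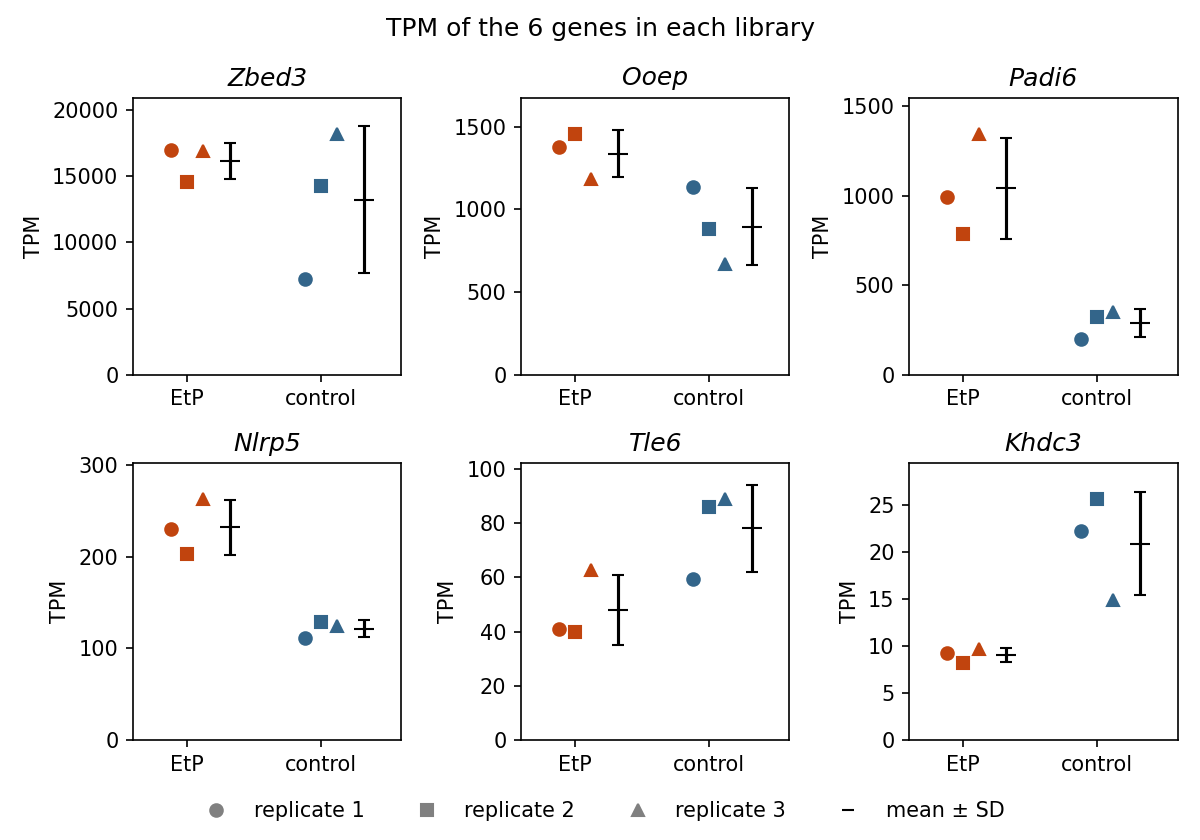
TPM (y axis, linear from 0, a scale for each panel) of each gene in the 3 EtP and 3 control libraries, with symbols for replicates and a bar for mean ± SD. EtP and control points do not overlap for Ooep, Padi6, Nlrp5 and Khdc3 and overlap for Zbed3 and Tle6; Zbed3 in control replicate 1, at 7261 TPM, is the lowest Zbed3 point.

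From Khdc3, the lowest, to Zbed3, the highest, TPM differed 1839-, 1770- and 1746-fold in EtP replicates 1 to 3 and 326-, 556- and 1223-fold in control replicates 1 to 3. TPM corrects for transcript length and so allows genes to be compared. In 5 of the 6 libraries the order from high to low was Zbed3, Ooep, Padi6, Nlrp5, Tle6 and Khdc3, and in EtP replicate 3 Padi6 stood above Ooep. Ooep and Padi6 are the neighbours whose TPM ranges meet within EtP embryos, at 1182 to 1455 TPM for Ooep and 786 to 1346 TPM for Padi6; in control embryos no neighbours in the order met.

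Nlrp5, a large NLR-family protein that forms the core of the complex with Tle6 and Ooep, lies on chr7:23385889-23441922 (plus strand) and has 6 annotated transcripts. It had 231, 203 and 263 TPM in EtP replicates 1 to 3, against 111, 129 and 125 TPM in control replicates 1 to 3. Every EtP library lay above every control library. The expected counts behind these were 8244, 6250 and 9267 in EtP and 4594, 4871 and 3331 in control libraries. Nlrp5 averaged 232 ± 29.8 TPM in EtP and 122 ± 9.14 TPM in control embryos (SD, n = 3 each). The log2 fold change was 1.59 ± 0.20 (SE; edgeR adjusted p = 0.000319), and it stayed called with library size alone, at 0.87 (adjusted p = 0.0036). By TPM rank among all genes it stood at 551 to 652 in EtP and 1167 to 1269 in control libraries. The pseudogene Nlrp5-ps, with which reads could be shared, was at 0 to 0.16 TPM in EtP and 0.21 to 0.51 TPM in control libraries.

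Ooep, a small KH-domain protein that partners Nlrp5 and Tle6, lies on chr9:78376109-78378725 (minus strand) and has a single annotated transcript. It had 1375, 1455 and 1182 TPM in EtP replicates 1 to 3, against 1135, 880 and 672 TPM in control replicates 1 to 3. The groups did not overlap, but the lowest EtP library and the highest control library were close. Expected counts were 29377, 26773 and 24827 in EtP and 28093, 20000 and 10769 in control libraries, which do overlap before scaling. The means were 1337 ± 140 TPM in EtP and 895 ± 232 TPM in control embryos (SD, n = 3 each). The log2 fold change was 1.19 ± 0.31 (SE; edgeR adjusted p = 0.0153). Leaving out control replicate 2 ended the call (adjusted p = 0.0635), as did leaving out EtP replicate 1 (0.0529) or EtP replicate 2 (0.0593), each by edgeR; so did scaling by library size alone (log2 fold change 0.48, adjusted p = 0.134).

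Tle6, a Groucho-family protein and a structural subunit of the complex, lies on chr10:81590904-81601073 (minus strand). It had 40.9, 40.0 and 62.8 TPM in EtP replicates 1 to 3, against 59.5, 85.9 and 88.8 TPM in control replicates 1 to 3. EtP replicate 3 lay above control replicate 1, so the groups overlapped. On TMM-scaled counts the order was the opposite one, with 62.8, 58.6 and 78.3 CPM in EtP and 43.0, 55.4 and 51.7 CPM in control libraries, and no overlap; 19.0% of tested genes were higher and 27.9% lower without overlap on that scale. The log2 fold change from counts was 0.41 ± 0.22 (SE; edgeR adjusted p = 0.18), so no change was called. On the TPM scale it was -0.70 (limma adjusted p = 0.0439), and with library size alone -0.32 (edgeR adjusted p = 0.295). The direction for Tle6 therefore flips with the scale, and no direction is given.

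The length column of the deposited tables, which averages a gene's transcripts by their estimated abundance, did not overlap between groups for Tle6, Nlrp5 and Zbed3, each longer in EtP, and the difference was largest for Tle6. For Tle6 it was 1624, 1573 and 1574 bases in EtP replicates 1 to 3, against 1103, 1205 and 1256 bases in control replicates 1 to 3. All EtP libraries lay above all control libraries, by 402 bases on average. Tle6 has 14 annotated transcripts of 375 to 2015 bases, of which 4 are coding, 4 are retained-intron forms and 6 are processed transcripts. The log2 ratio of length was 0.42, larger than in 95.2% of 9071 genes with several transcripts and at least 10 counts in each library; 12.2% of these genes were longer in EtP without overlap and 10.8% shorter. When the effective length was entered as an offset in the count model, an alternative chosen after seeing the data, the Tle6 log2 fold change was -0.02 (edgeR adjusted p = 0.952). The lengths rest on the authors' split of reads between transcripts, which was not tested. In Nlrp5 the length was 3488 to 3493 bases in EtP and 3462 to 3480 bases in control libraries, a mean difference of 17.7 bases, and in Zbed3 the groups' means differed by 0.087 bases. Ooep has no length variation, and Khdc3 and Padi6 overlapped.

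**Figure D2:**
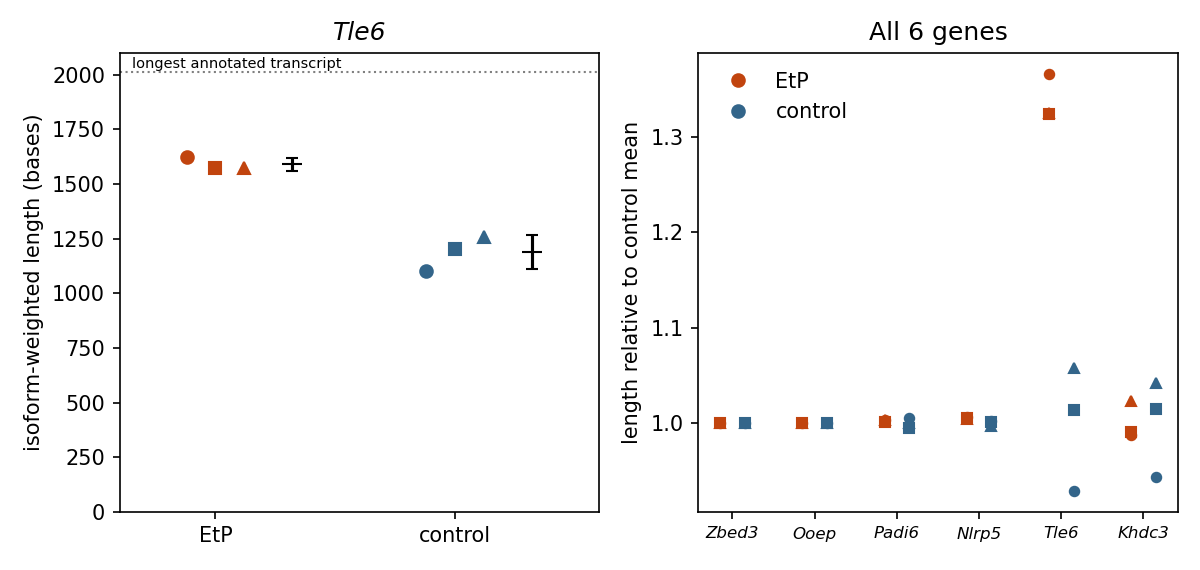
Left, isoform-weighted length of Tle6 in bases (y axis from 0) in the EtP and control libraries with mean ± SD, and a dotted line at the longest annotated transcript of 2015 bases; right, the length of each gene divided by its control mean. Tle6 is 1573 to 1624 bases in EtP and 1103 to 1256 bases in control libraries, and the points of the other genes lie near 1.

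Khdc3, a KH-domain protein of the complex with a known role in genome stability of the mouse embryo, lies on chr9:73101836-73104438 (plus strand) and was the lowest of the 6. It had 9.23, 8.24 and 9.70 TPM in EtP replicates 1 to 3, against 22.3, 25.6 and 14.9 TPM in control replicates 1 to 3. The TPM groups did not overlap, and Khdc3 was the only gene of the 6 below its controls in this way. TMM-scaled counts did overlap, at 10.9, 9.61 and 9.94 CPM in EtP and 18.0, 18.1 and 9.35 CPM in control libraries. The log2 fold change was -0.58 ± 0.29 (SE; edgeR adjusted p = 0.16). It was called lower with library size alone, at -1.29 (adjusted p = 0.00362), on the TPM scale, at -1.09 (limma adjusted p = 0.00789), and by edgeR without control replicate 3, at -0.79 (adjusted p = 0.0318). All 4 Khdc3 transcripts have an exon that overlaps the span of Gm20509 on the same strand. The exons of Gm20509 were not compared, so whether reads are divided between the genes was not tested. Gm20509 was at 0, 0 and 4.45 TPM in EtP replicates 1 to 3 and at 0 to 0.91 TPM in control libraries.

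Padi6, a member of the peptidylarginine deiminase family that builds the lattices, lies on chr4:140727355-140742643 (minus strand), has 3 annotated transcripts and differed most. It had 993, 786 and 1346 TPM in EtP replicates 1 to 3, against 199, 321 and 349 TPM in control replicates 1 to 3. The lowest EtP library stood at more than 2-fold the highest control library. Expected counts were 23196, 15802 and 30975 in EtP and 5411, 7921 and 6107 in control libraries. The means were 1042 ± 283 TPM in EtP and 290 ± 79.7 TPM in control embryos (SD, n = 3 each). The log2 fold change was 2.52 ± 0.23 (SE; edgeR adjusted p = 3.75e-05), with library size alone 1.79 (edgeR adjusted p = 0.000195) and on the TPM scale 1.85 (limma adjusted p = 0.000573). Padi6 stood at TPM rank 113 to 196 in EtP and 425 to 737 in control libraries. Its relatives Padi1, Padi2, Padi3 and Padi4 were all below 1.4 TPM in every library.

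Zbed3, which binds Axin in the Wnt pathway and is found with the subcortical complex, lies on chr13:95323612-95337841 (plus strand) and was among the most abundant messages of these embryos. It had 16977, 14584 and 16936 TPM in EtP replicates 1 to 3, against 7261, 14256 and 18180 TPM in control replicates 1 to 3. By rank that was 2, 4 and 2 in the EtP and 14, 4 and 3 in the control libraries. The control libraries spread widely and reached above all EtP libraries, so the TPM groups overlapped, with means of 16166 ± 1370 TPM in EtP and 13232 ± 5531 TPM in control embryos (SD, n = 3 each). TMM-scaled counts did not overlap, at 31657, 26815 and 26604 CPM in EtP and 9752, 15494 and 17090 CPM in control libraries. The log2 fold change was 1.01 ± 0.25 (SE; edgeR adjusted p = 0.0115). Zbed3 was no longer called with library size alone, at 0.25 (edgeR adjusted p = 0.379), on the TPM scale, at 0.39 (limma adjusted p = 0.278), and without EtP replicate 1, at 0.96 (edgeR adjusted p = 0.0503).

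An intron of Zbed3 holds the small nucleolar RNA Snora47, on chr13:95330600-95330737 with no Zbed3 exon over it, which was looked at after its values were seen. It had 49, 64 and 95 expected counts in EtP replicates 1 to 3, against 2216, 1548 and 799 in control replicates 1 to 3. Host gene and guest RNA went opposite ways on TMM-scaled counts: Snora47 fell by 3.76 ± 0.38 on the log2 scale (SE; edgeR adjusted p = 6.75e-05), and by library size alone its log2 fold change was -4.45. Of all tested genes 18.1% were lower by edgeR, with a median log2 fold change of -0.19. Of the 27 small nucleolar RNAs tested, 25 were lower, with a median of -3.50. These RNAs are made from spliced introns and carry no long poly(A) tail, so their reads in an oligo-dT library measure only what was primed.

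**Figure D3:**
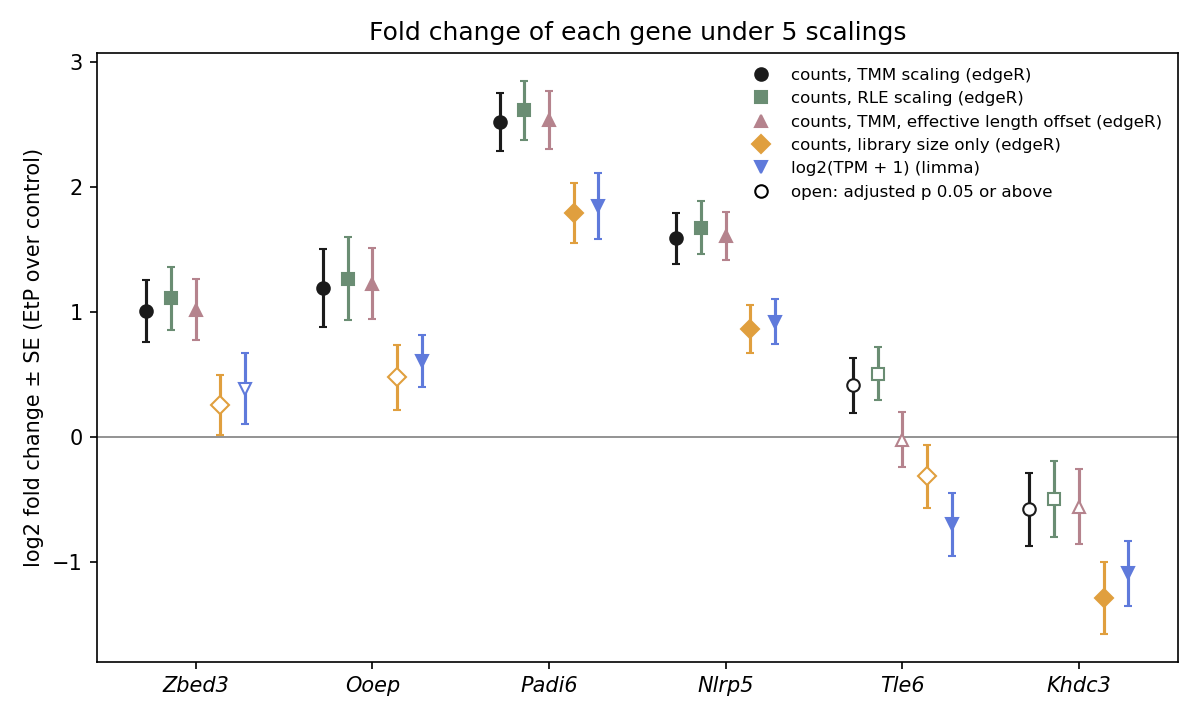
Log2 fold change ± SE (EtP over control, y axis) of each gene under 5 scalings, with filled symbols where the adjusted p was below 0.05. Padi6 and Nlrp5 are filled and above 0 under all 5; Tle6 lies at 0.41 with TMM and at -0.70 on the TPM scale, and Zbed3 at 1.01 and 0.39.

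Another scaling of counts shifts all genes by nearly the same amount, so each gene is also given against the median of all tested genes in the same fit, which takes that shift out by construction. On the log2 scale with TMM, Padi6 stood 2.71, Nlrp5 1.78, Ooep 1.38 and Zbed3 1.20 above that median. Tle6 stood 0.60 above it with TMM and at -0.10 against it on the TPM scale, and Khdc3 at -0.39 with TMM and -0.50 on the TPM scale.

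The ratio of 2 genes within a library does not depend on how libraries are scaled. All 15 ratios between the 6 genes were compared, each written so that the EtP mean is the larger one, and the groups did not overlap in 10 of them. Over all 92174253 pairs of the 13578 tested genes with TPM above 0 in each library, 43.8% did not overlap. Each of the 10 had an exact two-sided permutation p of 0.1, the smallest that 3 against 3 libraries allows, and 0.15 adjusted over the 15 pairs, so none passed the threshold. The 15 ratios share 6 genes and are not independent.

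Padi6 differed most against its partners. The TPM ratio of Padi6 to Tle6 was 24.3, 19.7 and 21.4 in EtP replicates 1 to 3, against 3.35, 3.74 and 3.93 in control replicates 1 to 3. On the log2 scale that was 4.44 ± 0.15 in EtP and 1.87 ± 0.12 in control embryos (SD, n = 3 each), a difference of 2.57 between groups whose replicates were tight. The log2 ratio of Padi6 to Khdc3 differed by 3.03, that of Padi6 to Zbed3 by 1.47, to Ooep by 1.25 and to Nlrp5 by 0.92, all without overlap.

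Among the core genes Nlrp5, Ooep and Tle6, the groups were apart in 1 of 3 ratios, where 43.8% of all pairs of tested genes were apart. The TPM ratio of Nlrp5 to Tle6 was 5.65, 5.08 and 4.18 in EtP replicates 1 to 3, against 1.87, 1.5 and 1.41 in control replicates 1 to 3. The log2 ratio of Nlrp5 to Ooep was -2.53 ± 0.34 in EtP and -2.85 ± 0.47 in control embryos (SD, n = 3 each), which overlapped, with a difference of 0.32 (exact permutation p = 0.5, 0.536 adjusted). Ooep to Tle6 differed by 1.32 but overlapped (exact permutation p = 0.2, 0.273 adjusted). Against Khdc3 the log2 ratio of Nlrp5 differed by 2.10, that of Ooep by 1.78 and that of Zbed3 by 1.56, each without overlap, and that of Tle6 by 0.46, with overlap. For ratios with Tle6 the length shift above enters the TPM. Taken from expected counts, the log2 ratio of Tle6 to Khdc3 differed by 0.92 without overlap, and that of Nlrp5 to Tle6 by 1.18. That of Zbed3 to Tle6 differed by 0.63, against 1.10 on TPM. On expected counts 11 of the 15 pairs did not overlap, and the share over all pairs of tested genes was computed on TPM only.

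**Figure D4:**
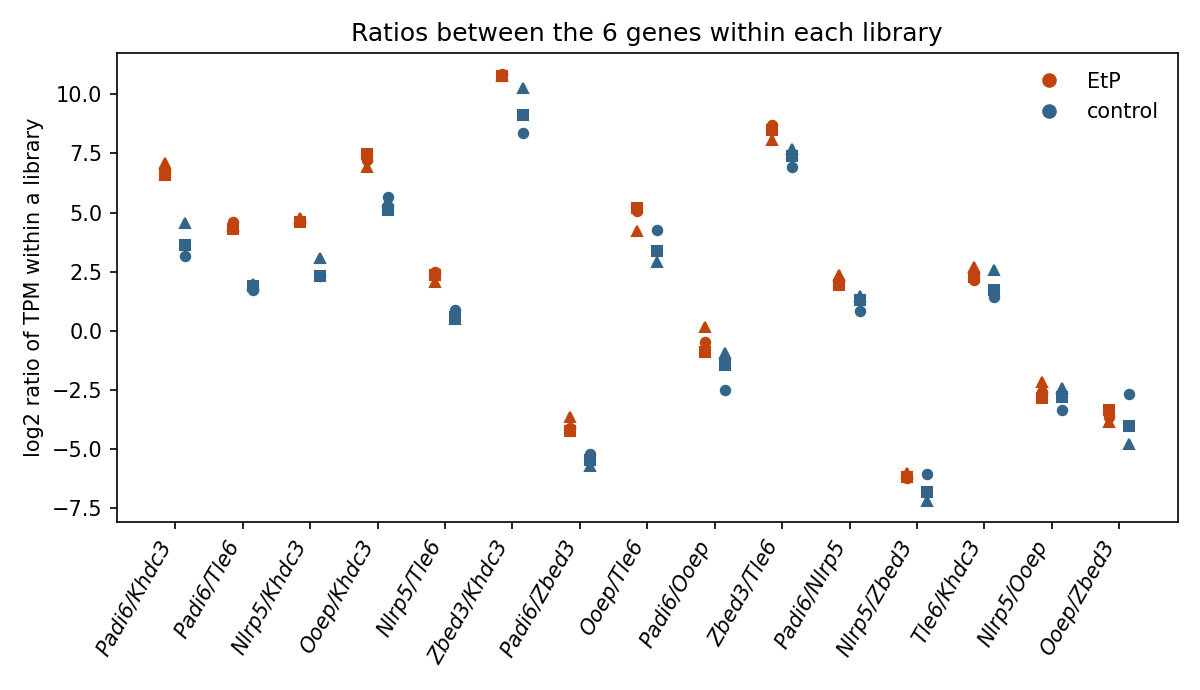
Log2 ratio of TPM within a library (y axis) for the 15 pairs of genes, EtP points left of control points, ordered by the difference between group means. The groups are apart in 10 pairs, and the differences run from 3.03 for Padi6/Khdc3 to 0.22 for Ooep/Zbed3.

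Summed over the 6 genes, TPM was 19625, 17077 and 19798 in EtP replicates 1 to 3, against 8788, 15698 and 19429 in control replicates 1 to 3. The groups overlapped (fold of means 1.29, exact two-sided permutation p = 0.2), and the spread of the controls followed Zbed3, which made up 85.8% ± 0.60 of the sum in EtP and 89.0% ± 5.69 in control embryos (SD, n = 3 each). Without Zbed3 the sum was 2648, 2493 and 2863 TPM in EtP and 1527, 1441 and 1249 TPM in control libraries. The other 5 genes together thus took 1.90-fold the share of the pool in EtP embryos, with no overlap (exact two-sided permutation p = 0.1, the smallest possible). Ooep and Padi6 had the highest TPM of these 5 in every library. Mean TPM was lower in EtP for Tle6 (47.9, against 78.0 in control embryos) and Khdc3 (9.06, against 20.9). Of single tested genes 6.74% were higher in EtP without overlap in TPM, and the share over sums of 5 genes was not computed.

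The start regions of all 6 genes were searched on both strands for letters known from egg genes. These were TATAAA (a form of the TATA box), TAATTG (bound by Nobox) and CANNTG (the E-box, bound by Figla). The RefSeq windows of 250 bases before to 50 after the start, on GRCm38.p6, are shown 5′ to 3′ along the gene, and capitals mark the matches. All 6 genes had a window, and those of the 4 genes called higher are shown. Where one had several, the one at the annotated start of the gene is shown.
Nlrp5 promoter (chr7:23385639-23385938, plus strand): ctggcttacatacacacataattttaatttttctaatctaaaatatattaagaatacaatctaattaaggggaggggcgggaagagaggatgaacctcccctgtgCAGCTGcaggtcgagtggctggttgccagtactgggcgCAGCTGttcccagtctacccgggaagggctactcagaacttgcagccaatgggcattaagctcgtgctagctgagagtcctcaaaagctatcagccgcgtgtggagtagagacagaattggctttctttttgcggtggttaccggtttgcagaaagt
Ooep promoter (chr9:78378539-78378838, minus strand): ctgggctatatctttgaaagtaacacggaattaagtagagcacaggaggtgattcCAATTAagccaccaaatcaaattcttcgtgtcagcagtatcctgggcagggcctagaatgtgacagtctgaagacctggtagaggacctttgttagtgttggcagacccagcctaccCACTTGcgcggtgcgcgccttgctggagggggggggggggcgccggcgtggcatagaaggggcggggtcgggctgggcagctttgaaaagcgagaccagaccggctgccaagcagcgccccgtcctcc
Padi6 promoter (chr4:140742594-140742893, minus strand): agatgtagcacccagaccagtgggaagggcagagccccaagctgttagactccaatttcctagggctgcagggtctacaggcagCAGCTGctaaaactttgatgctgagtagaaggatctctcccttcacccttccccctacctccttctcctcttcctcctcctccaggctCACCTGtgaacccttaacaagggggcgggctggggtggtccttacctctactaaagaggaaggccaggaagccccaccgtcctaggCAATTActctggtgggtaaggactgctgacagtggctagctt
Zbed3 promoter (chr13:95323355-95323654, plus strand): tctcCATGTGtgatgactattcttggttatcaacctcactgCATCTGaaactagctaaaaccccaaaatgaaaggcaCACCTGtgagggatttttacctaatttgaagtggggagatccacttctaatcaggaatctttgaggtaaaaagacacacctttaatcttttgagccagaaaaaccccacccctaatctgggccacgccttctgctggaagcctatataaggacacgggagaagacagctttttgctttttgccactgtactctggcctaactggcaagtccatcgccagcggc
TAATTG, read on the opposite strand as CAATTA, was present in Padi6 (at 9 after the start) and Ooep (at -195) and not in Nlrp5 or Zbed3. It occurs in 8.0% of 32851 promoter windows. CANNTG was present in all 4, where 72.3% of windows hold it, and TATAAA in none of these 4 windows, where 13.6% hold it. Only exact matches were counted, so near matches, such as tatataag in the Zbed3 window shown, were left out. Windows at other RefSeq starts of these genes, not shown, do hold TATAAA: 1 window of Nlrp5 with 2 matches (chr7:23403852-23404151) and 1 window of Zbed3 with 1 match (chr13:95324575-95324874). In the windows shown no match overlapped another. The windows of the uncalled genes, not shown, also held CANNTG, with 5 matches in Khdc3 and 3 and 4 in those of Tle6. They held neither TATAAA nor TAATTG. Binding was not measured.

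Other genes were described by lists drawn up from the complex's known partners and pathways. Over all 14373 tested genes, 12.5% were higher and 18.1% lower by edgeR, and 3.79% and 53.0% with library size alone. Of 8 further partners and lattice proteins 3 were higher in EtP embryos and 0 lower by edgeR, with a median log2 fold change of 0.56. DESeq2 and limma-voom also called 3 higher and 0 lower, and none was lower at an unadjusted p below 0.05. Skp1a, a subunit of SCF ubiquitin ligases, was at 3461 ± 410 TPM in EtP and 1619 ± 213 TPM in control embryos (log2 fold change 1.24 ± 0.28, edgeR adjusted p = 0.00805). Nlrp4f, an NLR-family partner of the complex, was at 2626 ± 271 TPM in EtP and 2045 ± 198 TPM in control embryos (0.94 ± 0.19, adjusted p = 0.0039). The ubiquitin-conjugating enzyme Ube2d3 was called at 0.71 ± 0.23 (adjusted p = 0.0388), a call that was lost in 5 of the 6 fits without a library, all but the one without control replicate 1. The F-box gene Fbxw18 was at 0.80 ± 0.40 (adjusted p = 0.15). With library size alone none was higher and 2 were lower, and without any single library 2 to 4 were higher. With limma on log2(TPM + 1), 1 was higher, Skp1a, and 1 lower, Cfl1 at -1.43 (limma adjusted p = 0.00103), with a median of -0.02. On that scale 4.86% of all tested genes were higher and 43.1% lower, and Nlrp4f was at 0.36 (limma adjusted p = 0.0794).

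Relatives of the 6 genes by sequence gave no common direction: of 10 tested of 16 rows 3 were higher and 2 lower (median 0.02). Zbed5, another BED zinc finger gene, was at 36.7 ± 1.2 TPM in EtP and 19.7 ± 2.96 TPM in control embryos (log2 fold change 1.53 ± 0.26, edgeR adjusted p = 0.0017). The KH-domain relatives Khdc1b (0.98 ± 0.23, adjusted p = 0.00976) and Khdc1c (0.77 ± 0.22, adjusted p = 0.0226) rose, and Dppa5a (-1.50 ± 0.40, adjusted p = 0.0168) fell. Khdc1b and Khdc1c are closely related, so reads may be divided between them. Leaving out control replicate 2, or EtP replicate 1, or EtP replicate 2 ended the call of Khdc1c, and leaving out EtP replicate 1 or 3 that of Dppa5a. With library size alone 1 was higher and 4 were lower, where 3.79% of all tested genes were higher and 53.0% lower.

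Tubulins, whose isoforms build the spindle and whose stability the lattices are known to affect, were partly higher. Of 16 tested 5 were higher and 1 lower (median 0.32). Tubb4b was at 1850 ± 213 TPM in EtP and 473 ± 155 TPM in control embryos (log2 fold change 2.67 ± 0.23, edgeR adjusted p = 2.76e-05), close to the fold change of Padi6. Tubb6 followed at 1.69 ± 0.24 (adjusted p = 0.000582), then Tubb5 at 1.06 ± 0.23 (0.00585) and Tubb2b at 1.01 ± 0.21 (0.00517). Library size alone gave 2 higher, among them Tubb4b at 1.92, and 4 lower, where 3.79% of all tested genes were higher and 53.0% lower.

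Actin and its regulators, which the complex is known to affect through cofilin, gave calls both ways. Of 30 tested 2 were higher and 6 lower (median -0.11), where 12.5% of all tested genes were higher and 18.1% lower (median -0.19). Spire1, an actin nucleator of the egg, was at 155 ± 40.5 TPM in EtP and 47.2 ± 13.9 TPM in control embryos (log2 fold change 2.38 ± 0.24, edgeR adjusted p = 5.92e-05), and Arpc1b, a subunit of the Arp2/3 complex, at 1.20 ± 0.22 (adjusted p = 0.00236). Profilin Pfn1 fell, with 54.9 ± 7.35 TPM in EtP and 175 ± 13.8 TPM in control embryos (-1.05 ± 0.23, adjusted p = 0.00609). The capping protein Capzb fell too (-0.90 ± 0.21, adjusted p = 0.00841), a call that ended when control replicate 2, or EtP replicate 1 or 3, was left out. The count of 6 lower was 4 without control replicate 3, 1 without control replicate 2, 1 without EtP replicate 1, 2 without EtP replicate 2 and 1 without EtP replicate 3. The count of 2 higher was 4 without control replicate 1 and 3 without control replicate 3. Library-size scaling gave 1 higher and 19 lower, where 3.79% of all tested genes were higher and 53.0% lower.

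For the Axin and beta-catenin pathway, into which Zbed3 feeds, no gene of 15 tested passed the edgeR test, with a median of -0.01; at an unadjusted p below 0.05 there were 2, both higher, and DESeq2 called 2 higher and limma-voom 0. The smallest p-values were those of Ctnnb1, which encodes beta-catenin, at 0.65 ± 0.26 (edgeR adjusted p = 0.0792), and of the receptor gene Lrp5 at 0.66 (adjusted p = 0.0921). With library size alone 6 were lower, where 53.0% of all tested genes were lower. Without control replicate 1, 2 were higher, and without control replicate 3, 3 were higher.

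Of 36 tested other genes with a known maternal effect or egg function 16 were higher and 0 lower by edgeR (median 0.70). At an unadjusted p below 0.05 there were 21 higher and 0 lower, and DESeq2 called 19 and limma-voom 17, all higher. Zfp57, which protects imprints, was at 10109 ± 922 TPM in EtP and 3782 ± 565 TPM in control embryos (log2 fold change 2.05 ± 0.22, edgeR adjusted p = 9.49e-05). The egg growth factor Bmp15 was at 1.79 ± 0.20 (adjusted p = 0.000127), the egg transcription factor Nobox at 1.83 ± 0.21 (0.000148) and the egg-specific Oas1d at 1.63 ± 0.22 (0.000411). Padi6 exceeded each of these in fold change and Nlrp5 none of them, while Ooep and Zbed3 lay between these and the list's median; whether the 6 differ from this list was not tested. Library size alone gave 7 higher and 2 lower, where 3.79% of all tested genes were higher and 53.0% lower. By edgeR the count of higher genes was 24 without control replicate 1 and 11 without EtP replicate 1.

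**Figure D5:**
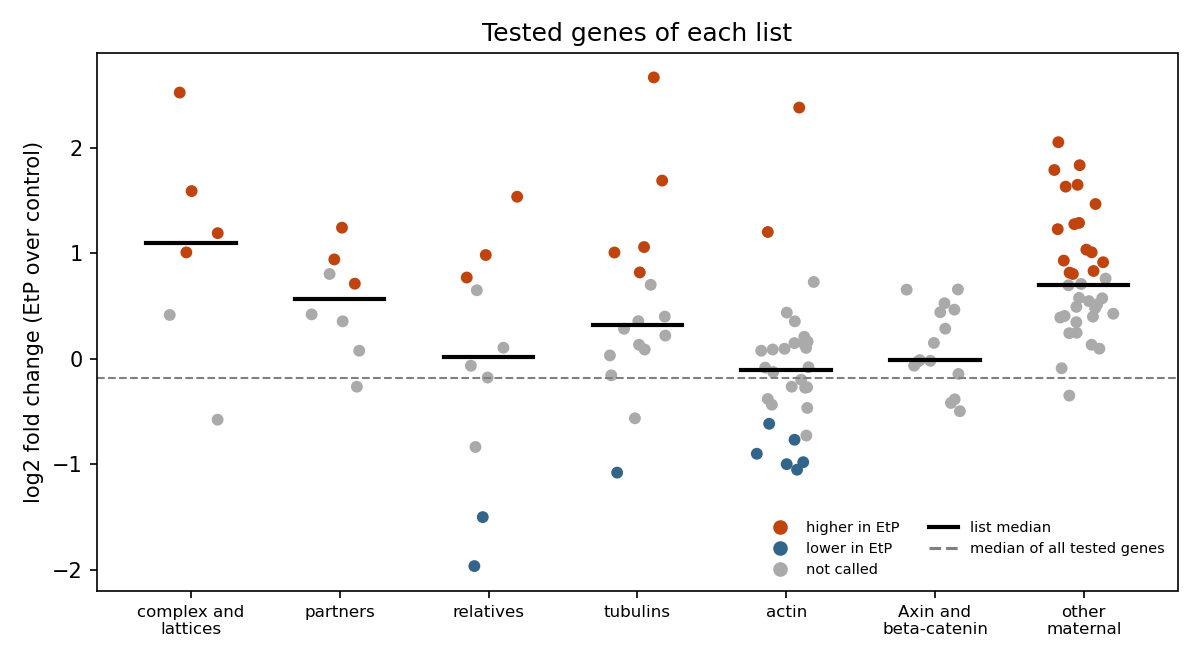
Log2 fold change (EtP over control, TMM-scaled counts, y axis) of each tested gene in the 7 lists, coloured by call, with list medians as bars and the median of all tested genes (-0.19) as a dashed line. The complex and lattice genes have the highest list median, 1.10, and the other maternal genes have 16 points called higher and none lower.

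The genes most like each of the 6 were named by the root-mean-square difference of log2 CPM over the 6 libraries, centred on each gene's mean, among 5918 genes. For Padi6 the nearest was Spire1 at 0.090, then Prkab1 at 0.120. For Nlrp5 they were Shld2 (0.054) and Ehf (0.056), for Ooep Fau (0.051) and Nsmce2 (0.052), and for Zbed3 Cox10 (0.049) and Caprin2 (0.061). Tle6 lay nearest to Eif3a (0.049) and Efcab14 (0.050). For Khdc3 they were Mrpl4 at 0.117 and Dnajc15 at 0.137, the farthest pair of the 6. Each profile has only 6 points, 3 in each group.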

How the data were processed

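Polyadenylated RNA of early 2-cell mouse embryos was amplified with oligo-dT primers by Smart-seq2, which does not mark strand, with paired-end sequencing, per the labels' protocols. The submitters' processing notes name cutadapt 1.16, STAR and the mm10 build; the counting program is not given in the sources used here. Per the file headers, the deposited tables give for each gene an expected count (the authors' estimate of reads, which need not be whole), TPM, FPKM (not used here) and a length weighted by isoform. Between 10.6% and 16.0% of the deposited expected counts were not whole (tolerance 0.005). The 214 rows without an Ensembl ID held 0.648% to 1.37% of counts.

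Expected counts were rounded and tested with edgeR 4.0.16 in R 4.3.3 (filterByExpr, TMM, robust quasi-likelihood, group as the only term) over 14373 genes, with Benjamini-Hochberg adjustment at 0.05. TPM was tested with limma 3.58.1 on log2(TPM + 1) over the same genes, which understates changes of low genes, and ratios and sums with exact permutation tests. Intervals are SD over libraries or SE of the fit. PCR copies were not marked. Every pair of libraries differed by more than sampling noise.

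The 6 genes, the lists and the rules were chosen with earlier results of these data known. All 6 genes are named; per list, up to 4 tested genes of smallest p that average 5 CPM or more; and per gene the 2 with the nearest profile, among genes with a mean of at least 10 CPM. Any other gene was picked after its values were seen. The alternatives tried were DESeq2 1.42.0, limma-voom, scaling by RLE, upper quartile or library size, other filters and pseudocounts, a replicate block, no mitochondrial genes and each library left out; removal of rows without an Ensembl ID and an effective length offset were chosen after seeing the data. Positions and transcripts are from GENCODE M21, which holds 54587 of 55335 gene IDs, and promoters from RefSeq on GRCm38.p6. Figures were drawn with matplotlib 3.10.9.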

Additional observations from a re-analysis of the deposited data

How the results depend on the processing

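The direction and call of Padi6 and Nlrp5 were kept under every alternative run, and the 10 ratios whose groups did not overlap kept their direction under the alternatives run for them (counts in place of TPM, each library left out). With library size alone 545 genes were higher and 7617 lower in EtP, 93.3% of calls lower against 59.1%, and 2 of the 6 genes were higher and 1 lower; Ooep was at 0.48, Tle6 at -0.32, Khdc3 at -1.29 and Zbed3 at 0.25. With limma on log2(TPM + 1) 698 genes were higher and 6195 lower, and on log2(TPM + 0.1) 697 and 6190, with 2 of the 6 lower in both; Tle6 was at -0.70 and -0.71, Khdc3 at -1.09 and -1.17, and Zbed3 at 0.39 in both. With the effective length offset Tle6 was at -0.022. A minimum of 10 CPM in 3 libraries gave 978 higher and 1454 lower, over fewer genes. The causes were not tested. Leaving out 1 library gave 1096 to 2637 genes higher, 1659 to 2887 lower, 2 to 4 of the 6 higher, 0 to 1 lower, log2 fold changes of 0.97 to 1.67 for Ooep, -0.79 to -0.35 for Khdc3 and 0.90 to 1.21 for Zbed3, and a difference of -0.25 to 0.79 in the log2 ratio of Ooep to Zbed3, turned without control replicate 3.

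Libraries with the same replicate number deviated together with correlations of 0.266, 0.0221 and 0.513, and those with different numbers at -0.429 to 0.233. EtP replicates 1 and 3 correlated best with the control of the same number, and EtP replicate 2 with control replicate 1, at 0.233. The labels name no pairs, so the main fit has none, and whether libraries were paired remains unknown. A replicate block gave 2295 genes higher and 3022 lower, against 1798 and 2601 without it. It called the same 4 of the 6 genes, with Tle6 at an edgeR adjusted p of 0.177 and Khdc3 at 0.155. Precision is limited by 3 libraries a group.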
